A study of Mus musculus with 10 samples.

Results

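PcG peaks were examined at 10 genes of the pluripotency network of mouse embryonic stem cells (ESCs), namely Nanog, Pou5f1, Zfp42, Esrrb, Klf2, Klf4, Klf5, Tfcp2l1, Fgf4 and Utf1. The genes were listed by name and located in the mm9 annotation, where 22350 protein-coding genes lie on the 20 chromosomes that hold peaks, and all 10 were found. Tfcp2l1 is annotated there under its older symbol Tcfcp2l1. At each gene, peaks were taken from 6 deposited lists if they overlapped the gene body extended by 10 kb on either side. The ESC lists came from ChIP-seq for Ring1b, Cbx2, Ezh2 and H3K27me3 in cells of the mouse line J1, cultured with serum and leukemia inhibitory factor on inactivated fibroblast feeders that were depleted at harvest. The neural stem cell (NSC) lists came from ChIP-seq for Ring1b and H3K27me3 in NSCs that had been differentiated in vitro from J1 ESCs and maintained with EGF and FGF on gelatin. Both cell types were fixed in 1% formaldehyde for 10 min, and the study's methods state an additional EGS cross-linking step for Ring1b that the sample labels omit.
Each cell type and target was represented by 1 library. The lists give the start and end of each peak without a height or score, and the depth of the libraries is unknown. No difference between lists therefore has a replicate check, and a gene without a peak is one at which no window passed the authors' threshold. A gene is said to have gained a mark in NSCs if its window held an NSC peak and no ESC peak of the same target, to have lost it in the reverse case, and to have kept it if both lists had a peak there. RNA was not measured in these libraries, so the activity of the genes is background and not a measurement.

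Pluripotency is maintained by a network of transcription factors that activate one another and their own genes. Pou5f1 encodes Oct4, a POU-domain factor required for pluripotency, and Nanog encodes a homeodomain factor that stabilises the undifferentiated state. Esrrb, an orphan nuclear receptor, the Kruppel-like factors Klf2, Klf4 and Klf5, and Tfcp2l1, a CP2-family factor downstream of LIF signalling, reinforce self-renewal. Zfp42 encodes the zinc finger protein Rex1, a marker of naive ESCs. Utf1 is a chromatin-associated transcriptional regulator of undifferentiated cells, and Fgf4 encodes a secreted growth factor that ESCs produce and that promotes their exit from self-renewal. Nanog, Pou5f1 and most of the others are switched off when ESCs differentiate into neural cells. Polycomb group (PcG) proteins repress developmental genes through PRC1, which contains Ring1b and Cbx2, and PRC2, in which Ezh2 trimethylates histone H3 on lysine 27 to give H3K27me3. In mammals PcG complexes are found mainly at promoters rich in unmethylated CpG dinucleotides.

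The DNA upstream of the start sites differed widely among these genes. The 250 bases before 6 start sites are given from the mm9 genome, 5′ to 3′ on the strand of the gene, with every CpG in capitals. Utf1 (chr7:147129438-147129687, plus strand) and Fgf4 (chr7:152047041-152047290, plus strand) are shown because their start sites lay inside NSC H3K27me3 peaks. Of the 2 internal start sites of Esrrb that lay inside PcG peaks in both cell types, the more upstream one is shown (chr12:87762344-87762593, plus strand). The first start site of Esrrb (chr12:87701817-87702066, plus strand) lay inside no peak. Klf4 (chr4:55545348-55545597, minus strand) and Nanog (chr6:122657257-122657506, plus strand) had no peak and represent a CpG-rich and a CpG-poor start site.
Utf1: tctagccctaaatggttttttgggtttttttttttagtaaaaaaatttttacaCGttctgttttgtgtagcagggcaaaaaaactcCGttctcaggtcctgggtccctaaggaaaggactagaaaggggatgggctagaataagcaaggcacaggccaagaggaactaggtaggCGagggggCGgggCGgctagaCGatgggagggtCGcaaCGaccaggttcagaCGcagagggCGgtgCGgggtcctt
Fgf4: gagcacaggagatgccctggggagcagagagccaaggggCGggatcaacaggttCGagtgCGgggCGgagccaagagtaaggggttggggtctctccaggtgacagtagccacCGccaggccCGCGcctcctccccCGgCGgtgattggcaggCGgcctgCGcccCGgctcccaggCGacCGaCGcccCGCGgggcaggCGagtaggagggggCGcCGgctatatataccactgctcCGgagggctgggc
Esrrb internal: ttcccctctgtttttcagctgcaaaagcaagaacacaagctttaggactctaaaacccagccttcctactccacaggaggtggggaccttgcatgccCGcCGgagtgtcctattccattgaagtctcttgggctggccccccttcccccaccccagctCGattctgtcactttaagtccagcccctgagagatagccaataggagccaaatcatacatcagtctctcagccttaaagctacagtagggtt
Esrrb first: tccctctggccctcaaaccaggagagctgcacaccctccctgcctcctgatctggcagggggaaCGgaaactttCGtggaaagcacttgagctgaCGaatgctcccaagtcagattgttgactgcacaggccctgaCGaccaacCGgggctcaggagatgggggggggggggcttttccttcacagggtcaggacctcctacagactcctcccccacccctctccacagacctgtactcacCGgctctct
Klf4: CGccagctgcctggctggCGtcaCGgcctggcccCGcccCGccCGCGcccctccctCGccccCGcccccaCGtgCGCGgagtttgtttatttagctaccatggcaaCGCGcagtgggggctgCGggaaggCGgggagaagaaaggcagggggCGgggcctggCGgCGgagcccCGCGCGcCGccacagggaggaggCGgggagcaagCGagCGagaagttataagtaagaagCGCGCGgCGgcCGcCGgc
Nanog: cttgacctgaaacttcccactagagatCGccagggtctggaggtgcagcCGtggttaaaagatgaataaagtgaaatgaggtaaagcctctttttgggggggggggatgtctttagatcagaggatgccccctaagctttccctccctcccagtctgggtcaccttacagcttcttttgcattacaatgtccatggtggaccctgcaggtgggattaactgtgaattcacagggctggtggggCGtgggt
These stretches held 11 CpGs for Utf1, 21 for Fgf4, 3 for the internal start of Esrrb, 6 for its first start, 32 for Klf4 and 3 for Nanog. Of all protein-coding genes, 44.1% had at least as many as Utf1, 19% at least as many as Fgf4 and 5.18% at least as many as Klf4. At the internal Esrrb start shown, most CpGs followed the start site instead of preceding it. The other internal start, at 87762833, had 34 CpGs in its 250 upstream bases, and 3.96% of all genes had at least as many. The 1 kb centred on the internal start shown contained 55 CpGs, against 23 around the first Esrrb start and 17 around Nanog.

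In ESCs, the pluripotency genes were largely without PcG peaks. Ring1b was found in the window of 1 of the 10 genes, Ezh2 in 1, H3K27me3 in 1 and Cbx2 in 0. In each case the gene was Esrrb. Among all protein-coding genes, 11.5% had an ESC Ring1b peak in the window, 5.28% an Ezh2 peak, 9.97% an H3K27me3 peak and 3.09% a Cbx2 peak. At the first start site, the most upstream position of the annotated gene, 0 of the 10 genes lay inside a peak of any ESC list. The corresponding shares of all genes were 7.03% for Ring1b, 1.15% for Cbx2, 2.56% for Ezh2 and 4.31% for H3K27me3. With 10 genes, 1 gene is 10% of the list, so the counts for ESC Ring1b and H3K27me3 were close to the shares of all genes.
In NSCs, Ring1b peaks were missing from all of these windows, Esrrb included (0 of 10 genes, against 4.64% of all genes), and 0 first start sites lay inside one (1.74% of all genes). With 10 genes, a count of 0 is close to these shares, so the absence does not set these genes apart. H3K27me3 peaks were present at 3 of the 10 genes, Utf1, Fgf4 and Esrrb, where 4.70% of all genes had one. The first start sites of Utf1 and Fgf4 lay inside these peaks, that is 2 of 10, compared with 1.77% of all genes. Both NSC H3K27me3 counts were higher than the shares of all genes, but with 1 library and 10 genes no test was possible. In all, 7 genes had no peak of any list in their windows, as did 82.3% of all protein-coding genes. These were Nanog, Pou5f1, Zfp42, Klf2, Klf4, Klf5 and Tfcp2l1.
The windows of the 10 genes were not unusually long, with a median of 26240 bp against 35427 bp for all genes. They ranged from 21324 bp for Utf1 to 180512 bp for Esrrb, the longest gene of the list.

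**Figure D1:**
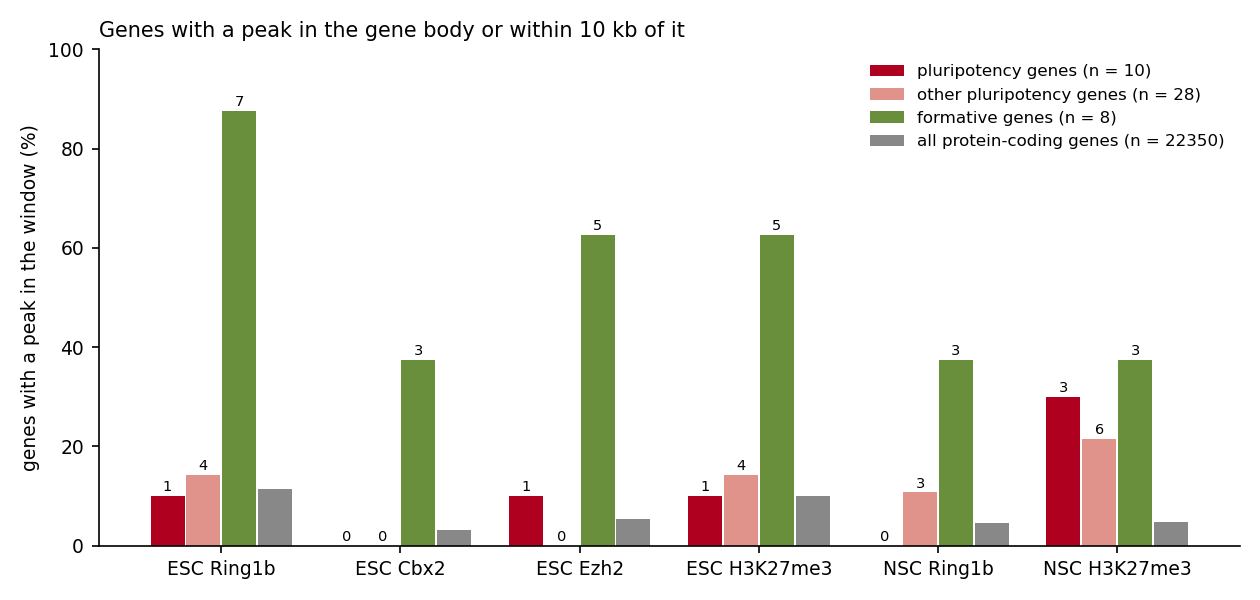
Share of genes (y axis, percent) with at least 1 peak in the gene body or within 10 kb of it, for each of the 6 lists (x axis). Bars stand for the 10 pluripotency genes, 28 other pluripotency genes, 8 formative genes and all 22350 protein-coding genes, and the number of genes with a peak is printed above each bar of the 3 short lists. The 10 pluripotency genes stood at 3 for NSC H3K27me3 and at 0 or 1 for every other list.

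No Ring1b peak was gained at any of the 10 genes in NSCs (0 of 10, against 2.0% of all genes), and Ring1b was lost at 1, Esrrb (8.87% of all genes). Both Ring1b counts were close to the shares of all genes. H3K27me3 was gained at 2, Utf1 and Fgf4 (1.74% of all genes), kept at Esrrb and lost at 0 (7.02% of all genes). Both gains lay over the first start site in windows without an ESC H3K27me3 peak, a pattern that 86 genes or 0.385% of all genes showed. Neither window held a Ring1b peak in either cell type, so that both genes belonged to the 229 (1.02%) that gained H3K27me3 with no Ring1b peak in the window before or after differentiation.
NSC H3K27me3 peaks without an overlapping NSC Ring1b peak were common in the deposited lists. Of the 1647 NSC H3K27me3 peaks, 441 (26.8%) overlapped an NSC Ring1b peak, 1063 (64.5%) overlapped no ESC H3K27me3 peak, and 867 (52.6%) overlapped neither. Most of the peaks without an ESC H3K27me3 peak were narrow. Those at least 2 kb wide, as at Utf1 and Fgf4, numbered 227 (13.8% of the list). Among the 390 genes that gained H3K27me3 in their windows, 107 (27.4%) had an NSC Ring1b peak there and 99 (25.4%) an ESC Ring1b peak. For the 86 genes with the gain over the first start site, the counts were 25 (29.1%) and 38 (44.2%). Among all genes, 4.64% had an NSC Ring1b peak in the window and 11.5% an ESC Ring1b peak. Genes that gained H3K27me3 thus had Ring1b peaks more often than all genes, although most had none in NSCs. The part of the cross-linking step, antibody and depth in the difference between the Ring1b and H3K27me3 lists was not tested.

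Utf1 (ENSMUSG00000047751.8) is a compact gene of 1324 bp and 2 exon blocks on the plus strand of chromosome 7, at 147129688-147131011 in mm9. In NSCs it lay wholly inside an H3K27me3 peak of 2400 bp, from 147129001 to 147131400. The peak began 687 bp upstream of the first start site, ended 1712 bp downstream of it, and held both annotated start sites. It contained 143 CpGs, and its ratio of observed to expected CpGs was 0.752. Only 123 of the 1647 NSC H3K27me3 peaks had a ratio as high, and 28.5% of all 1647 were at least as wide.
In ESCs no peak of any list came close to Utf1. The nearest was an H3K27me3 peak of 1000 bp, the smallest width in the lists, 48.5 kb upstream at the start site of Kndc1. The nearest ESC Ring1b and Ezh2 peaks were 103 kb downstream, and the nearest NSC Ring1b peak was 359 kb upstream. The NSC H3K27me3 peak thus stood alone on the Utf1 gene.

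Fgf4 (ENSMUSG00000050917.4; chr7:152047291-152051148, plus strand, 3858 bp) carried an NSC H3K27me3 peak of 2200 bp from 152046201 to 152048400. The peak was nearly symmetrical about the single annotated start site, which lay 1090 bp from its upstream and 1109 bp from its downstream edge. It covered 1110 bp of the gene (28.8%) and touched 2 of its 3 exon blocks. Its GC content was 62.6%, its CpG ratio was 0.575, and 31.0% of the NSC H3K27me3 peaks were at least as wide.
Unlike Utf1, Fgf4 lies in a cluster of FGF genes that carried PcG peaks in ESCs. The neighbouring genes were examined after the peaks at Fgf4 had been seen. The upstream neighbour Fgf3 (ENSMUSG00000031074.8; chr7:152023988-152030341, plus strand), a signalling factor of the developing embryo, had all 4 ESC marks at its start site. These were Ring1b (3400 bp), Cbx2 (1400 bp), Ezh2 (2400 bp) and H3K27me3 (3800 bp), and the Ring1b and H3K27me3 peaks ended 20.7 kb upstream of the Fgf4 start site. The downstream neighbour Fgf15 (ENSMUSG00000031073.5; chr7:152082437-152086858, plus strand) had an ESC Ring1b peak of 2000 bp at its start site, 34.5 kb from that of Fgf4, and no other ESC peak.
In NSCs the arrangement was different. H3K27me3 at Fgf3 was listed over 1000 bp instead of 3800 bp, at Fgf4 over 2200 bp instead of no peak, and at Fgf15 over 1000 bp instead of no peak. Fgf4 thus had the widest H3K27me3 peak of the 3 genes in NSCs and was the only one of them without a peak in ESCs. No NSC Ring1b peak was listed in the cluster, the nearest being 2200 kb upstream of Fgf4.

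Esrrb (ENSMUSG00000021255.10; chr12:87702067-87862578, plus strand) extends over 160512 bp and has 7 annotated transcripts that begin at 5 start sites. It was the only one of the 10 genes with PcG peaks in ESCs, and these lay far inside the gene, about 60 kb downstream of the first start site. Ring1b was found from 87762001 to 87764600 (2600 bp), Ezh2 from 87762201 to 87764000 (1800 bp) and H3K27me3 from 87762001 to 87764800 (2800 bp). There was no Cbx2 peak in the gene.
In NSCs, H3K27me3 occupied the same place, from 87762001 to 87764600. The H3K27me3 peaks of both cell types shared 2600 bp, and all 4 peaks shared the 1800 bp of the Ezh2 peak. Ring1b was no longer listed, and the nearest NSC Ring1b peak was 521 kb downstream of the first start site. Esrrb was 1 of 306 genes (1.37%) at which H3K27me3 was kept and Ring1b lost.
The peaks held 2 of the 5 start sites, at 87762594 and 87762833, which are 60.5 and 60.8 kb from the first and give rise to 4 of the 7 transcripts. They touched 1 of the 10 exon blocks. The other start sites lay outside every peak. When the start site of any transcript was counted in place of the first one, Esrrb therefore added 1 gene for each of 4 lists. The counts of the 10 genes became 1 for ESC Ring1b (8.0% of all genes), 1 for Ezh2 (3.12%), 1 for ESC H3K27me3 (5.28%) and 3 for NSC H3K27me3 (2.13%).
The CpG ratio around the 2 internal start sites was 0.661 and 0.732, compared with 0.284 around the first start site.

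**Figure D2:**
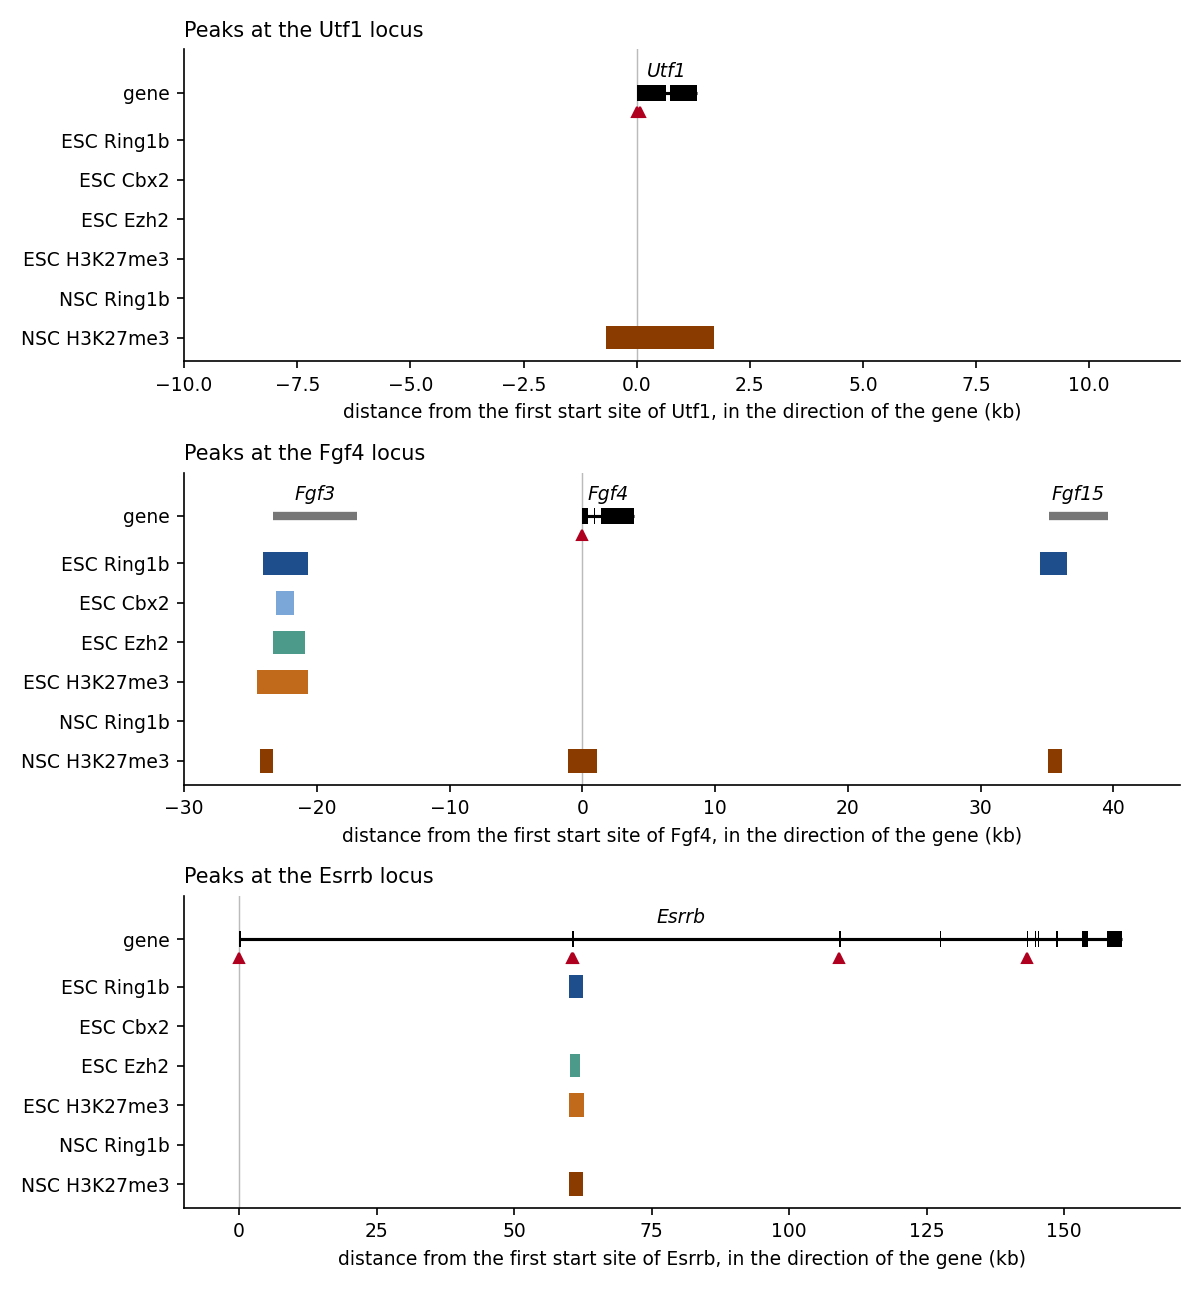
Peaks of the 6 lists (coloured bars, 1 row per list) at Utf1, Fgf4 and Esrrb, drawn to scale against the distance from the first start site in kb (x axis, in the direction of the gene). Black blocks are exons, grey bars are the neighbouring genes Fgf3 and Fgf15, and red triangles are annotated start sites. NSC H3K27me3 covers the Utf1 and Fgf4 start sites where no ESC list has a peak, and the Esrrb peaks of 4 lists coincide at an internal pair of start sites.

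The other 7 genes had no peak in any window, and the distance from the first start site to the nearest peak varied widely. Nanog, Zfp42 and Pou5f1, the ESC markers of the list, were among these genes. Nanog (ENSMUSG00000012396.5; chr6:122657507-122664651, plus strand) had its nearest ESC H3K27me3 peak 112 kb and its nearest NSC Ring1b peak 56.5 kb downstream, while the nearest NSC H3K27me3 peak was 3940 kb away. The NSC Ring1b peak was 1400 bp wide and held no start site. Zfp42 (ENSMUSG00000051176.5; chr8:44380422-44392363, minus strand) had an NSC Ring1b peak of 1000 bp 20.2 kb upstream, which held no annotated start site either, and no H3K27me3 peak within 2000 kb. That peak was the closest to any of the 7 start sites and lay outside the window.
Pou5f1 (ENSMUSG00000024406.9; chr17:35642982-35647721, plus strand) was different in that peaks of 4 lists lay together 35 kb upstream. ESC Ring1b (2000 bp), Ezh2 (1200 bp) and H3K27me3 (2200 bp) and NSC H3K27me3 (1800 bp) all held the start site of H2-Q10. H2-Q10 belongs to the MHC class I family, whose members are similar in sequence, so the assignment of tags to it is uncertain. No peak of any list lay between this gene and Pou5f1, and the 7 annotated start sites of Pou5f1 were all outside peaks.
The Kruppel-like factors had neither ESC nor NSC peaks in their windows. The nearest peaks to Klf2 (ENSMUSG00000055148.7; chr8:74842932-74845555, plus strand) were NSC Ring1b at 157 kb and ESC Ring1b, Ezh2 and H3K27me3, each at 625 kb. For Klf4 (ENSMUSG00000003032.7; chr4:55540013-55545347, minus strand) they were ESC Ring1b at 118 kb and NSC Ring1b at 342 kb. Klf5 (ENSMUSG00000005148.7; chr14:99697910-99712624, plus strand) was the most isolated, with NSC H3K27me3 at 485 kb and every other list beyond 1000 kb. Tfcp2l1 (ENSMUSG00000026380.9; chr1:120524522-120581744, plus strand) had an NSC Ring1b peak of 1000 bp 134 kb downstream of its start site, 76.9 kb past the end of the gene, and the nearest ESC peaks at 791 kb for Ring1b and 792 kb for H3K27me3.
Over the 10 genes, the median distance to the nearest peak was 371 kb for ESC Ring1b and 368 kb for ESC H3K27me3, where the medians of all genes were 291 and 339 kb. For NSC Ring1b it was 350 kb against 655 kb, and for NSC H3K27me3 970 kb against 658 kb. The pluripotency genes as a group were therefore neither all close to PcG peaks nor all far from them, and their own distances to NSC H3K27me3 ran from 0 to 3940 kb.
The windows of the 10 genes also held the start sites of 6 other genes, of which 0 lay inside a peak. Tcf19 and Cchcr1 near Pou5f1 were the protein-coding ones.

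**Figure D3:**
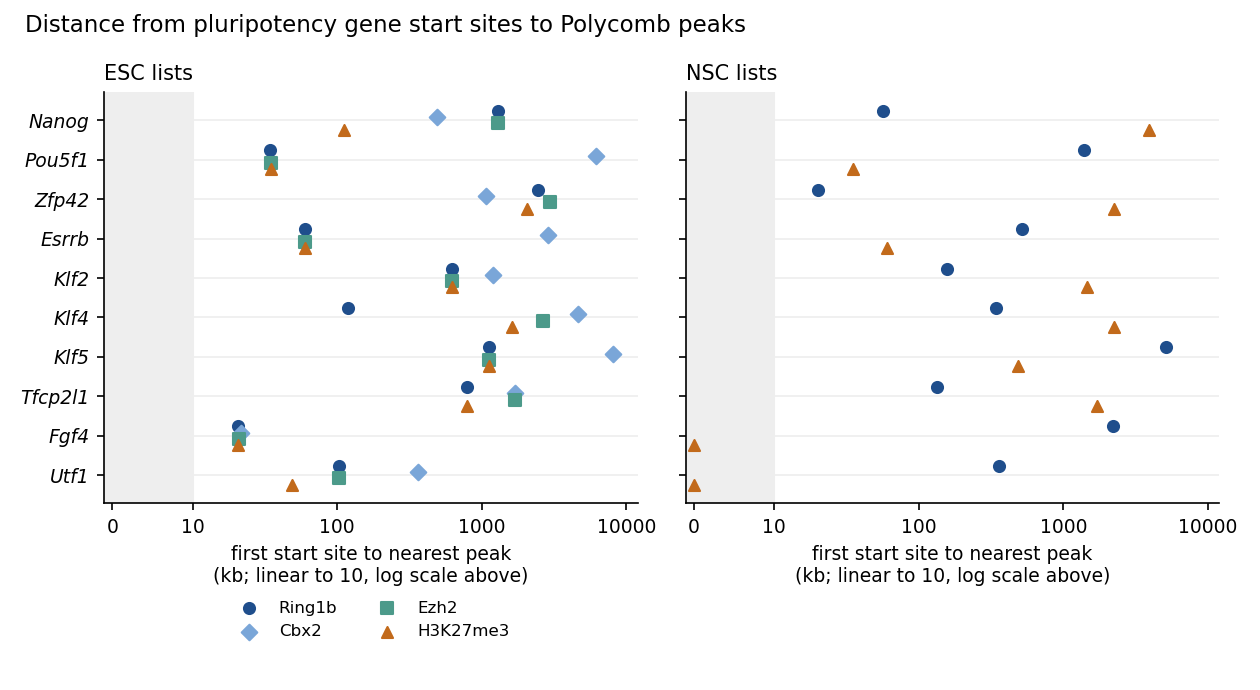
Distance in kb (x axis, linear to 10 kb in the shaded part and logarithmic above) from the first start site of each of the 10 genes (y axis) to the nearest peak of each list, for the ESC lists (left) and the NSC lists (right). Symbols stand for the targets. NSC H3K27me3 lies at 0 kb for Fgf4 and Utf1, and the nearest points of the genes without a peak are NSC Ring1b at Zfp42 (20.2 kb) and the peaks 35 kb upstream of Pou5f1.

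The base composition of the 10 start sites was compared with these results. Peaks of the lists were not uniformly rich in CpGs. The median CpG ratio of the peaks was 0.642 for ESC Ring1b, 0.666 for Ezh2 and 0.604 for ESC H3K27me3, but 0.428 for Cbx2, 0.385 for NSC Ring1b and 0.333 for NSC H3K27me3, so that the peaks at Utf1 and Fgf4 were richer than the median of their list. The ratio of observed to expected CpGs in the 1 kb around the first start site was 0.959 for Klf4, 0.926 for Klf5, 0.797 for Utf1, 0.773 for Fgf4 and 0.713 for Klf2. It was 0.586 for Tfcp2l1, 0.486 for Zfp42, 0.335 for Pou5f1, 0.287 for Nanog and 0.284 for Esrrb. Thus 5 of the 10 genes had a ratio of at least 0.6, and the median was 0.649, compared with 0.549 for all genes, of which 45.6% had a ratio that high. The start sites of Utf1 and Fgf4 and the internal start sites of Esrrb, which lay inside peaks, were all among the CpG-rich ones.
The reverse was not the case. Klf4, Klf5 and Klf2, with ratios higher than or close to those of Utf1 and Fgf4, had no PcG peak in either cell type. Klf4 and Klf2 also had 32 CpGs each in the 250 bases upstream of the start site, more than Utf1 or Fgf4. Across all genes, a ratio of at least 0.6 was common where start sites lay inside peaks. It was reached by 79.0% of the 964 start sites inside ESC H3K27me3 peaks and by 81.4% of the 86 start sites at which H3K27me3 was gained in NSCs, with medians of 0.727 and 0.745. Most CpG-rich start sites were nevertheless outside peaks, since 12.7% of them lay inside ESC Ring1b peaks, 7.47% inside ESC H3K27me3 peaks and 3.21% inside NSC H3K27me3 peaks. For start sites under 0.6 these shares were 2.23%, 1.66% and 0.56%.

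**Figure D4:**
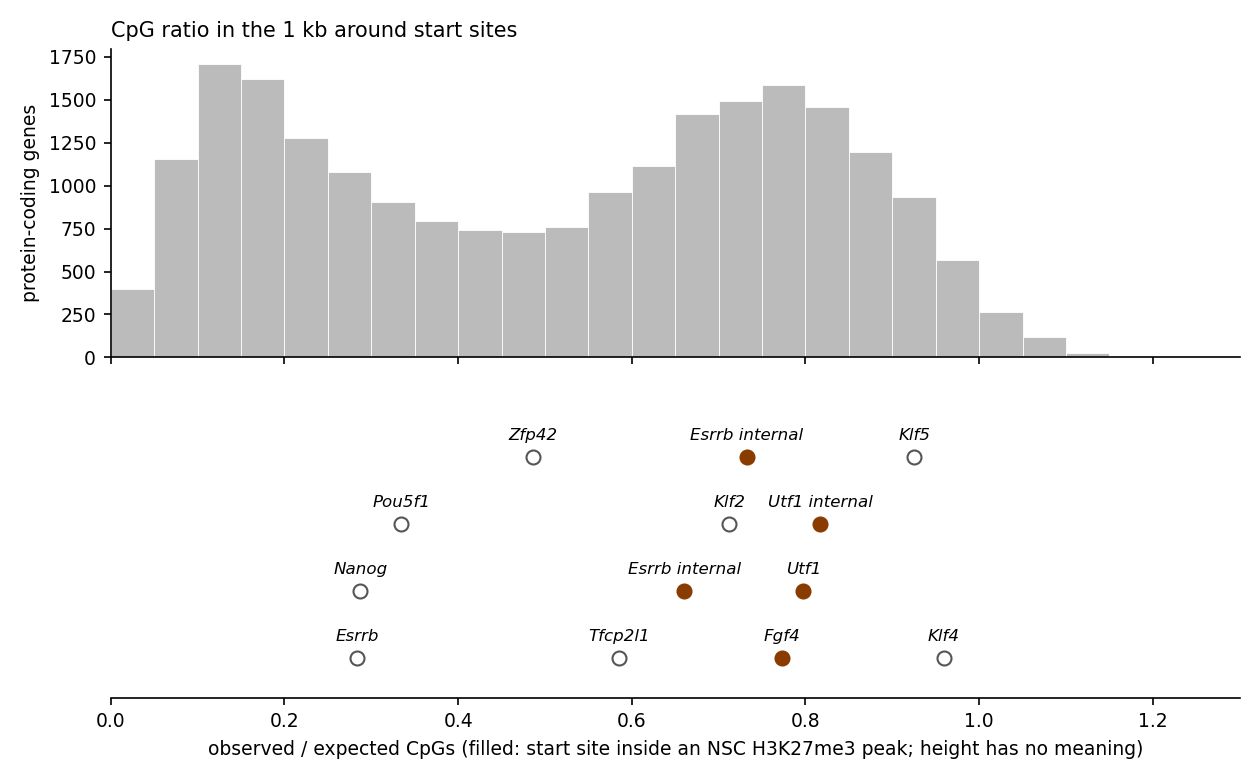
Ratio of observed to expected CpGs (x axis) in the 1 kb around the first start site of all protein-coding genes (upper panel, number of genes on the y axis) and of the 10 pluripotency genes (lower panel, where height has no meaning), with the other start sites of Utf1 and Esrrb that lie inside an NSC H3K27me3 peak added (internal). Filled points are start sites inside such a peak. These 5 points lie between 0.661 and 0.817, and Klf4 and Klf5 lie higher without a peak.

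A second list of 28 genes was chosen by name as other pluripotency genes, and all were found. The part of each in the network was not tested. Of these, H3K27me3 was gained at 4 in NSCs (1.74% of all genes), lost at 2 (7.02%) and kept at 2, and Ring1b was gained at 3 (2.0%) and lost at 4 (8.87%). The 2 losses of H3K27me3 are thus close to the share of all genes. NSC H3K27me3 peaks were present in 6 of the 28 windows (4.70% of all genes) and NSC Ring1b peaks in 3 (4.64%). ESC H3K27me3 peaks were present in 4 (9.97%) and ESC Ring1b peaks in 4 (11.5%), both near the shares of all genes. Cbx2 and Ezh2 peaks were present in 0 (3.09% and 5.28%). Lin28a, which encodes an RNA-binding protein that blocks let-7 maturation, gained H3K27me3 (chr4:133573001-133574800, 1800 bp) without a Ring1b peak. Its start site, at 133574756, was inside the peak but close to the upstream edge, whereas those of Utf1 and Fgf4 lay well inside their peaks. The Lin28a start site was CpG-poor, with a ratio of 0.373.
The other 3 gains, 2 of which are described here, differed from those at Utf1 and Fgf4 in that Ring1b was gained with H3K27me3. At Tcf15, a bHLH factor, Ring1b (1400 bp) and H3K27me3 (1600 bp) both covered the start site, which had a CpG ratio of 1.06. At Sall4, a zinc finger factor that acts with Oct4, Ring1b (2000 bp) and H3K27me3 (5200 bp) lay inside the gene, 1043 and 443 bp from the start site. Whether the 10 genes differ from the other 28 in Ring1b was not tested.
Most of the formative genes, which are induced as cells leave the naive state, had PcG peaks in their windows already in ESCs. Of 8 such genes, ESC Ring1b was present in the window of 7 (11.5% of all genes), ESC H3K27me3 of 5 (9.97%) and NSC H3K27me3 of 3 (4.70%). The first start site lay inside an ESC Ring1b peak at 5 (7.03%) and inside an ESC H3K27me3 peak at 2 (4.31%). Ring1b was lost at 4 (8.87%) and kept at 3 of the 7 genes with an ESC Ring1b peak. Of the 2572 genes with an ESC Ring1b peak in the window, 1982 lost it. Loss was thus not more frequent here than at genes that had a peak to lose. Gains are not compared with those of the 10 genes, since a gene with an ESC peak in its window cannot gain that mark by the definition used.
Markers of the labelled cell types were examined in the same way, although peaks can only show where PcG marks lie. The ESC markers Pou5f1, Nanog and Zfp42 had no peak in either cell type. Of 11 NSC markers found, 8 had a peak of at least 1 list in the window, as did 3960 of all 22350 genes. ESC H3K27me3 peaks were present in the windows of 8 markers (9.97% of all genes). H3K27me3 was lost at 6 of these 8 (7.02% of all genes), including Nes, Pax6, Olig1, Olig2 and Hes5. It was kept at 2, among them Sox2, and gained at 0. Of the 2229 genes with an ESC H3K27me3 peak in the window, 1569 lost it. The losses at the markers were thus near the share for genes that had a peak to lose. Sox2 was also 1 of the 28 genes above. Its first start site lay inside the NSC H3K27me3 peak but outside the ESC H3K27me3 peak.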

How the data were processed

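ChIP-seq for Ring1b, Cbx2, Ezh2 and H3K27me3 in ESCs and for Ring1b and H3K27me3 in NSCs gave 1 list of peaks per library. The authors deposited the start and end of each peak in mm9 and no other value. For the mapping the submitters' processing notes name BWA, and the study's methods name Bowtie. By the methods, tags were counted in windows of 1 kb every 200 bp and compared with input through a negative binomial distribution whose size parameter was chosen by inspection, and enriched windows close to one another were merged. The smallest deposited peak was 1000 bp. The 4 inputs were not analysed here.

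A peak was assigned to a window or start site if they shared 1 bp or more, with Python 3.11.15 and numpy 2.4.6, and the code was tested on simulated data. Genes, exons and start sites came from the GENCODE annotation and sequences from the genome of the same build (NCBIM37). The CpG ratio is the number of CpGs times the length, divided by the product of the numbers of C and G, and was available for 22338 genes. All 10 genes were named. Genes of the other lists were named where an NSC peak was gained, except that a few genes are not reported here, and the FGF cluster, H2-Q10, Kndc1 and the individual NSC markers were named after their values were seen. The genes and lists were chosen with earlier results of these data known. With 1 library per group there is no test, interval or p-value, and the counts of all genes serve as background. Alternatives were other windows (gene body alone, 20 kb flanks, 10 kb around the first start site), peaks at least 2 kb wide, peaks with most of their width in the window, any start site, a peak within 1 kb of the start site, and gains counted peak by peak. Flanks of 100 kb were added after the data were seen.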

Additional observations from a re-analysis of the deposited data

How the results depend on the processing

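The results were the 16 counts of the 10 genes with a peak in the window, with the first start site in a peak, and with a gain or loss. Of 82 values under the alternatives, 66 equalled or stayed within 1.5 times the main count and 16 moved. Where the main count of genes with a peak was 0, narrower windows or fewer peaks could not change it. Part of the 66 was therefore fixed in advance. H3K27me3 was gained at 2 genes with every alternative except flanks of 100 kb, where the count was 0 because ESC peaks at Fgf3 and Kndc1 then fell in the windows. With those flanks, chosen after seeing the data, 3 genes had ESC Ring1b, 1 Cbx2, 3 Ezh2, 4 ESC H3K27me3 and 3 NSC Ring1b, and Ring1b was gained at 3 and lost at 3. With 10 kb either side of the first start site, Esrrb dropped out, and the counts for ESC Ring1b, Ezh2, ESC H3K27me3 and lost Ring1b were each 0. With peaks at least 2 kb wide the Ezh2 count was 0, since the Esrrb peak is narrower. Counting the start site of any transcript gave 1 for ESC Ring1b, 1 for Ezh2 and 1 for ESC H3K27me3. No paired analysis was possible because each cell type and target had 1 library and no test was made.

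The lists carry no depth or score, so binding under the authors' threshold is not visible, and a difference between an ESC and an NSC list at 1 gene was not tested. Peaks cannot be ranked, and the share of NSC H3K27me3 peaks that a second library would return is unknown. Silencing of the genes in these NSCs was not measured here.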
